A study of Mus musculus with 217 samples.

Results

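Endothelial fatty acid uptake genes are described here as a set of 10 genes: Lpl, Gpihbp1, Angptl4, Cd36, Slc27a1, Fabp4, Fabp5, Pparg, Meox2 and Tcf15. They are 10 of the 52550 gene rows counted in the study, and they were chosen by their known function in the route, with earlier results of these data known. All 10 passed the filter on low counts in every fit. RNA bound to HA-tagged ribosomes was immunoprecipitated from brain, lung and heart of RiboTagEC mice and sequenced. All groups, the 0 hr controls included, were adult C57BL/6J mice of the genotype Cdh5CreERT2/+; Rpl22HA/+. All mice had been gavaged with 5 mg of tamoxifen 4 times, every other day, at an age of 4 to 6 weeks. The Cre recombinase is driven by the promoter of Cdh5 (VE-cadherin), so that the HA tag on the ribosomal protein Rpl22 is switched on in endothelial cells (ECs). The LPS groups were given 10 mg/kg LPS, a bacterial endotoxin, into the peritoneum and were sampled at 6, 24, 48, 72 or 168 hr. The 0 hr groups had no LPS. The question is how the translatome of ECs, which is the RNA on their ribosomes, carries the fatty acid uptake route in each organ and how this changes after LPS.

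Fatty acids reach the heart muscle through the capillary wall. Lipoprotein lipase (Lpl) is made mostly by muscle and fat cells and is carried to the capillary lumen by Gpihbp1, an anchor protein of ECs, where it frees fatty acids from triglyceride. Angptl4 is a secreted inhibitor of that lipase. The membrane receptor Cd36 and the transport protein Slc27a1 (FATP1) take up fatty acids, and Fabp4 and Fabp5 bind them in the cytosol. Pparg is a nuclear receptor activated by fatty acids, and Meox2 and Tcf15 are transcription factors that work as a pair in ECs of heart and skeletal muscle and drive uptake genes such as Cd36 and Lpl. Brain ECs are known to take up little free fatty acid by this route.

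The stretches of 250 bases upstream of the RefSeq start of Cd36 and of Meox2 are shown, since these genes are the receptor and the regulator with the widest range among tissues below. Sequences and starts are from RefSeq on GRCm38.p6, and Cd36 (chr5:17835897-17836146, minus strand) and Meox2 (chr12:37108290-37108539, plus strand) are each written 5′ to 3′ on the strand of the gene. Capitals mark matches on either strand to AGGTCA (the nuclear receptor half-site), CANNTG (the E-box), TATAAA (the TATA box) or TAATTA (a homeodomain core).
Cd36: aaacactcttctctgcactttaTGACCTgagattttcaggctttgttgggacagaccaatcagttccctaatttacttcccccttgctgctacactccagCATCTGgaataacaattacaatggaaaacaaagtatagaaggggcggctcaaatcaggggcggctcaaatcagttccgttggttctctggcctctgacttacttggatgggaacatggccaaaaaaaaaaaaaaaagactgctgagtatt
Meox2: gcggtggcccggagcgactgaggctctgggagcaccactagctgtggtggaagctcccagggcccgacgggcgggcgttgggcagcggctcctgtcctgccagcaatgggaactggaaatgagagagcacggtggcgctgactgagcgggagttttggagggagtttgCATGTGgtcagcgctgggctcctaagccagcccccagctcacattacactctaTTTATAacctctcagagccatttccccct
The Cd36 stretch held 1 AGGTCA and 1 CANNTG match, and the Meox2 stretch held 1 TATAAA and 1 CANNTG match. Among 32851 windows of this length upstream of RefSeq starts, AGGTCA was found in 14.0%, CANNTG in 66.2%, TATAAA in 12.4% and TAATTA in 4.8%. These matches are a description of the letters and not of binding. Windows matched 4 of the 10 genes, and of the 3 windows of Pparg 2 held AGGTCA while the 3 windows of Slc27a1 held none.

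The genes lie at these places on GRCm38 (mm10, GENCODE M21), all are protein coding, and no exon of theirs overlaps another gene. The lipase genes are Lpl (chr8:68880491-68907448, plus strand), Gpihbp1 (chr15:75596628-75599481, plus strand) and Angptl4 (chr17:33773750-33781830, minus strand). The uptake proteins are encoded by Cd36 (chr5:17781690-17888801, minus strand) and Slc27a1 (chr8:71568882-71587302, plus strand). The binding protein genes share a chromosome, with Fabp5 at chr3:10012548-10016607 (plus strand) and Fabp4 at chr3:10204088-10208576 (minus strand). The regulators are Pparg (chr6:115360951-115490399, plus strand), Meox2 (chr12:37108540-37179534, plus strand) and Tcf15 (chr2:152143561-152149097, plus strand). Mouse Fabp5 also has processed pseudogenes, so its counts may miss reads that align to more than 1 place.

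In all, 217 sequencing runs made up 98 libraries, and 80 libraries with at least 3% of their reads on genes were used: 28 of brain, 24 of lung and 28 of heart. The groups held 5 brain, 4 lung and 5 heart libraries at 0 hr, the same at 6 hr, 4, 2 and 4 at 24 hr, 6 each at 48 hr and 4 each at 72 and at 168 hr. Counts on genes ran from 7226796 to 32891759 in brain, from 8136031 to 33050750 in heart and from 284457 to 43417945 in lung, so that lung values are the least even in precision. Endothelial markers were present in each tissue at 0 hr, with a sum over 10 markers of 1906 to 3701 CPM (reads of a gene scaled to a common library total, with TMM factors) in brain, 4834 to 11570 in lung and 11254 to 13101 in heart. Markers of other cells were present too: 10 neural markers summed to 1768 to 9597 CPM in brain, 6 alveolar epithelial markers to 2759 to 9633 CPM in lung and 10 cardiomyocyte markers to 3859 to 7081 CPM in heart, and none of the cardiomyocyte markers was at 0 in a heart library at 0 or 6 hr. In these bulk samples, fewer cells of a type and less RNA per cell cannot be told apart.

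A few libraries went against their labels. The summed level of 10 LPS response genes was 122 to 185 CPM in heart at 0 hr and 13734 to 23733 CPM in 4 of the 5 heart libraries at 6 hr, but 220 CPM in replicate 5 at 6 hr. The same held for brain 6 hr replicate 6, with 431 CPM against 13454 to 18091 CPM in the other 4, and for lung 6 hr replicate 4, with 562 CPM against 8217 to 28621 CPM in the other 3. Heart 72 hr replicate 1 had 157 CPM, against 1472 to 5604 CPM in the other 3. These 4 libraries, singled out after their values were seen, are called the libraries without an LPS response, and results after LPS are given with all libraries and then without these 4. By the names of the deposited files, the 3 libraries at 6 hr come from 1 mouse. Heart 72 hr replicate 1 shares its mouse with brain and lung 72 hr replicate 1 by these names. Every brain library at 72 hr had at least 1742 CPM and every lung library at least 2750 CPM of the LPS response genes. That mouse thus had the response in its other tissues, unlike the mouse at 6 hr. The cause was not tested.

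At 0 hr most genes of the route were most abundant in the heart libraries, while Slc27a1 was highest in the brain libraries. Cd36, Gpihbp1, Lpl, Fabp4, Meox2 and Pparg were lowest in brain, whereas Fabp5, Angptl4 and Slc27a1 were higher in brain than in lung. Of the 10 genes, 8 were higher and 1 was lower in heart than in brain by edgeR's quasi-likelihood test, Benjamini-Hochberg adjusted, where 22.8% of 17730 genes were higher and 32.0% were lower. All 10 were higher in heart than in lung, where 31.2% of all genes were higher and 29.9% were lower. Between lung and brain, 6 genes were higher and 3 lower in lung, beside 26.4% and 37.9% of all genes. The median log2 difference of the 10 genes was 6.81, 4.02 and 3.01 in the 3 comparisons, and over all genes it was −0.09, 0.09 and −0.42. Endothelial markers moved in the same direction but less far, with 9 of 10 higher in heart than in brain (median 2.63), 6 of 10 higher in heart than in lung (median 1.21) and 8 of 10 higher in lung than in brain (median 1.43). All 10 cardiomyocyte markers were also higher in heart than in brain (median 8.49) and than in lung (median 5.70). The 10 macrophage markers summed to 313 to 1486 CPM in lung and 48.1 to 80.1 CPM in heart. Of these, 9 were lower in heart than in lung, and 7 were higher and 2 lower in lung than in brain. The part that marker levels play in the tissue differences was not tested.

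**Figure D1:**
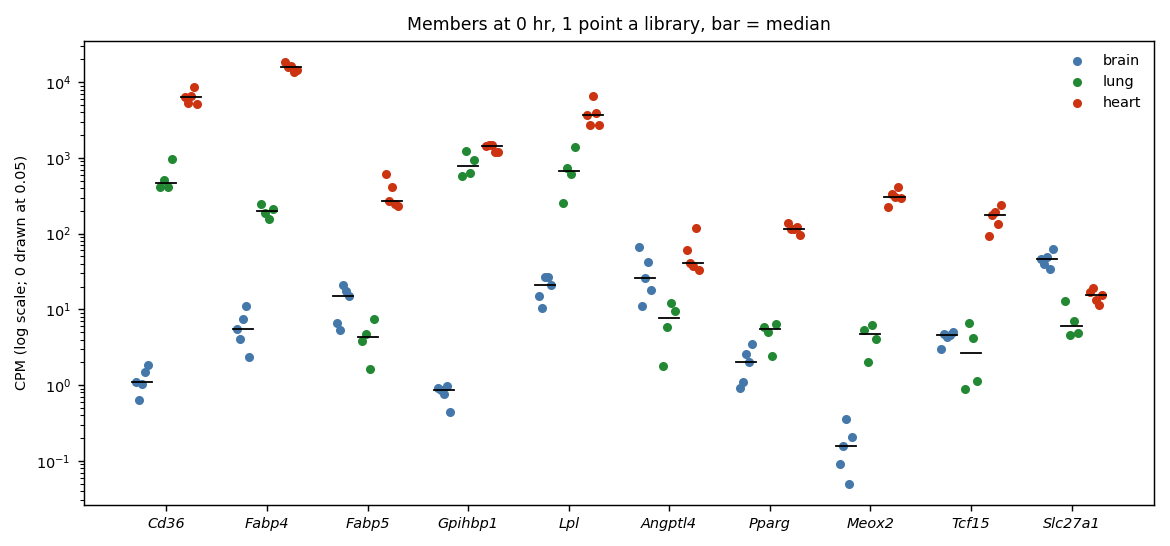
Level of each of the 10 genes at 0 hr in CPM on a log axis, with 1 point for each of the 5 brain, 4 lung and 5 heart libraries and a bar at the median. Every heart library sits above every brain library except for Angptl4, which overlaps between heart and brain, and Slc27a1, which is highest in brain. The share of all genes that separate in this way was not counted. A value of 0 is drawn at 0.05.

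Lpl, the lipase itself, had 3741, 2685, 6663, 3946 and 2748 CPM in heart, 251, 740, 607 and 1404 CPM in lung and 14.9, 10.5, 26.8, 26.5 and 21.0 CPM in brain. The 3 tissues did not overlap. Lpl was 212-fold higher in heart than in brain (log2 difference 7.73, SE 0.55, edgeR adjusted p = 1.62e-08), 4.98-fold higher in heart than in lung (adjusted p = 0.00072) and 42.7-fold higher in lung than in brain (adjusted p = 4.5e-07). Gpihbp1, its anchor on ECs, had 1416, 1469, 1502, 1214 and 1215 CPM in heart, 570, 1227, 622 and 936 CPM in lung, and under 1 CPM in each brain library (0.448 to 0.976 CPM). Heart and lung overlapped for Gpihbp1 in 1 lung library, while brain stood far below both. Its level was 1810-fold higher in heart than in brain (log2 difference 10.82, SE 0.41, adjusted p = 7.91e-11) and 1110-fold higher in lung than in brain (log2 difference 10.11, SE 0.40, adjusted p = 6.73e-10). Between heart and lung the Gpihbp1 difference was 1.63-fold (log2 difference 0.71, SE 0.28, adjusted p = 0.0418), and this call was lost in 10 of 14 fits that each left out 1 library, with DESeq2 (0.0682) and with RLE factors (0.101).

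Angptl4, the lipase inhibitor, broke the order of its partners. It had 60.1, 41.3, 37.7, 117 and 33.0 CPM in heart, 67.5, 11.1, 25.9, 42.5 and 18.1 CPM in brain and 1.77, 5.91, 12.3 and 9.43 CPM in lung. Heart and brain overlapped (log2 difference 0.86, SE 0.52, interval of 2 SE −0.17 to 1.89, edgeR adjusted p = 0.173). With the mouse as a block, read from the names of the deposited files, Angptl4 was higher in heart than in brain by 1.00 (edgeR adjusted p = 0.00776). Heart was 7.53-fold above lung (log2 difference 2.91, SE 0.60, adjusted p = 0.000771), and lung was 4.15-fold below brain (log2 difference −2.05, SE 0.58, adjusted p = 0.00629).

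Cd36, the fatty acid receptor, showed the widest range of the 10 genes between heart and brain. It had 6377, 5290, 6585, 8558 and 5156 CPM in heart, 419, 506, 416 and 978 CPM in lung and 1.09, 0.632, 1.02, 1.5 and 1.86 CPM in brain. No tissue overlapped another. The heart level was 5380-fold that of brain (log2 difference 12.39, SE 0.54, edgeR adjusted p = 1.72e-10) and 10.9-fold that of lung (3.45, SE 0.41, adjusted p = 7.27e-06), and lung was 493-fold above brain (8.94, SE 0.49, adjusted p = 2.85e-09). Slc27a1, the transport protein, ran the other way in brain: 45.8, 40.1, 49.2, 34.5 and 63.0 CPM in brain against 17.2, 19.1, 13.2, 11.4 and 15.3 CPM in heart and 13.0, 4.62, 7.07 and 4.86 CPM in lung. Every brain library was above every heart and lung library for Slc27a1, and heart and lung overlapped. It was 2.97-fold lower in heart than in brain (log2 difference −1.57, SE 0.28, adjusted p = 0.000184) and 6.48-fold lower in lung than in brain (adjusted p = 4.59e-06), and 2.18-fold higher in heart than in lung (adjusted p = 0.00506).

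Fabp4, the binding protein shared by capillary ECs and fat cells, had 18558, 15854, 16128, 13807 and 14599 CPM in heart, 248, 185, 154 and 211 CPM in lung and 5.44, 4.03, 7.39, 10.9 and 2.38 CPM in brain. The tissues did not overlap, and heart was 2720-fold above brain (log2 difference 11.41, SE 0.58, edgeR adjusted p = 6.46e-10) and 79.8-fold above lung (6.32, SE 0.53, adjusted p = 3.54e-07). Fat cells also make Fabp4, and the 6 adipocyte markers summed to 0.981 to 4.51 CPM in heart at 0 hr, with Adipoq at 0.0818 to 0.801 CPM. In lung these 6 summed to 11.9 to 35.9 CPM. Of 5 tested, 4 were higher in heart than in brain and 4 were lower in heart than in lung. The part of fat cells in the Fabp4 level was not tested. Fabp5, the second binding protein, had 608, 266, 417, 248 and 235 CPM in heart, 3.83, 4.69, 1.62 and 7.48 CPM in lung and 6.62, 5.29, 21.3, 17.4 and 15.1 CPM in brain. Here brain was above lung rather than below it, though the 2 tissues overlapped in a few libraries. Fabp5 was 28.3-fold higher in heart than in brain (4.82, SE 0.52, adjusted p = 1.23e-06), 81.1-fold higher in heart than in lung (6.34, SE 0.61, adjusted p = 1.35e-06) and 2.86-fold lower in lung than in brain (−1.52, SE 0.53, adjusted p = 0.0204). Within library series 1 the lung minus brain difference of Fabp5 was −0.14 and within series 2 it was −2.64, and without lung 0 hr replicate 3 the call was lost.

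Meox2, the first of the paired heart EC regulators, had 222, 330, 305, 414 and 293 CPM in heart, 5.30, 2.04, 6.23 and 4.04 CPM in lung and 0.0906, 0.158, 0.352, 0 and 0.207 CPM in brain. The brain values stand for 0 to 10 counts a library, so the fold against brain, 1880 (log2 difference 10.88, SE 0.58, edgeR adjusted p = 8.89e-10), rests on few reads. Heart was 71-fold above lung (6.15, SE 0.50, adjusted p = 3.11e-07), with no overlap between any pair of tissues. Tcf15, its partner, had 93.3, 175, 196, 133 and 237 CPM in heart, 0.884, 6.53, 4.14 and 1.12 CPM in lung and 2.99, 4.74, 4.26, 4.57 and 5.07 CPM in brain. Every heart library was above every other, and lung and brain overlapped. Tcf15 was 40.1-fold higher in heart than in brain (5.32, SE 0.39, adjusted p = 1.93e-08) and 53.3-fold higher in heart than in lung (5.74, SE 0.44, adjusted p = 2.01e-07), and for lung against brain the log2 difference was −0.41 (SE 0.38, adjusted p = 0.346). Pparg, the nuclear receptor, had 136, 114, 115, 122 and 96.2 CPM in heart, 5.89, 4.96, 2.46 and 6.36 CPM in lung and 0.906, 1.11, 2.60, 2.02 and 3.45 CPM in brain. Pparg was 59.3-fold higher in heart than in brain (5.89, SE 0.39, adjusted p = 7.1e-09), 24.2-fold higher in heart than in lung (adjusted p = 6e-07) and 2.45-fold higher in lung than in brain (adjusted p = 0.00668), where the latter pair overlapped.

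The heart differences had the same sign in both library series, with unequal size for some genes. The heart minus brain difference in mean log2 CPM was 12.61 in series 1 and 12.09 in series 2 for Cd36, 11.81 and 11.30 for Fabp4, 10.27 and 10.46 for Meox2, 6.06 and 4.02 for Fabp5 and 6.83 and 5.34 for Pparg. For Tcf15 heart minus lung was 6.87 and 5.12. Lung against brain was less even, at −1.82 and 0.17 for Tcf15 and at 2.50 and 0.40 for Pparg.

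Set per kilobase of exon, the order of the median levels at 0 hr differed by tissue. Length was that of the exons of protein-coding transcripts. Over all annotated exons Fabp4 has 4489 rather than 896 bases and Lpl 10478 rather than 4115, while Cd36 has 3590 rather than 3536. The orders below hold for the shorter lengths, may change with the longer ones and were not computed with those. In the heart libraries Fabp4 led at 17700 CPM per kb, followed by Cd36 at 1800, Lpl at 909, Gpihbp1 at 676 and Fabp5 at 270. Tcf15 came next at 179, then Meox2 at 129, Pparg at 48.5, Angptl4 at 12.5 and Slc27a1 at 5.39 CPM per kb. By these lengths the binding protein stood above the receptor. In the lung libraries Gpihbp1 led at 372 CPM per kb, followed by Fabp4 at 221, Lpl at 164 and Cd36 at 131. The other 6 genes were between 1.98 and 4.32 CPM per kb. In the brain libraries Slc27a1 (16.1 CPM per kb) and Fabp5 (15.3) led, and Cd36 (0.308) and Meox2 (0.0669) were lowest. Neighbours in this order such as Slc27a1 and Fabp5 were not tested against each other.

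A wider list of 74 genes of lipoprotein handling, fatty acid transport, activation, storage, oxidation and their regulators gives the surroundings. Of 65 tested at 0 hr, 29 were higher and 12 lower in heart than in brain (median log2 difference 0.50), beside 22.8% and 32.0% of 17730 genes. Against lung, heart had 32 higher and 13 lower (0.61), beside 31.2% and 29.9%. Lung had 21 higher and 26 lower than brain (0.04), beside 26.4% and 37.9%. The counts by role that follow stand beside the same shares. Mitochondrial oxidation genes were higher in heart than in brain in 8 of 12 and lower in 0, and droplet and lipolysis genes in 7 of 12 with 0 lower, whereas of 12 lipoprotein and lipase genes 3 were higher and 4 lower. The largest differences between heart and brain were those of Aplnr (log2 7.01, SE 0.39, edgeR adjusted p = 1.27e-09) and its ligand Apln (4.48, adjusted p = 1.72e-07), of Meox1 (4.61, adjusted p = 2.62e-06), the close relative of Meox2, and of Mgll (3.89, adjusted p = 1.85e-08), a monoglyceride lipase. Acsl3, which activates fatty acids, and Lrp1, a lipoprotein receptor, were lower in heart than in brain by −3.87 and −3.53. Against lung, heart was higher in Fabp3 (4.99), the muscle form of the binding proteins, Got2 (4.25), Meox1 (3.93), Aplnr (3.92) and Dgat2 (3.77), and lower in the droplet protein Hilpda (−4.89). Lung was above brain in Hilpda (5.38), Apln (4.80) and Nrp1 (3.32) and below it in the lipoprotein Apoe (−5.12), Got2 (−3.78) and Dgat2 (−3.42), each past the threshold.

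After LPS the receptor, the lipase anchor, both binding proteins and Meox2 were lower in heart at 6 hr, and at 72 hr none of the 10 genes passed the test. At 6 hr, 1 gene was higher (Angptl4) and 5 were lower (Cd36, Gpihbp1, Fabp5, Fabp4 and Meox2) by edgeR's quasi-likelihood test with all 28 heart libraries, beside 22.4% of 16024 genes higher and 20.3% lower. Without the libraries lacking an LPS response, 2 were higher (Lpl was added) and 6 were lower (Tcf15 was added), beside 27.8% and 30.2% of 16242 genes. The median log2 difference of the 10 genes at 6 hr was −1.02 with all libraries, against −0.05 over all genes, and −1.66 against −0.08 without those libraries.

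Cd36 had 710, 1331, 890 and 1948 CPM in 4 heart libraries at 6 hr and 7903 CPM in replicate 5, which has no LPS response. At 24 hr it had 7980, 5522, 5037 and 5677 CPM, at 48 hr 5666 to 7846 CPM (median 6954), at 72 hr 3800 (replicate 1), 11284, 8920 and 11379 CPM, and at 168 hr 3851, 2791, 6572 and 4902 CPM. The 4 responding libraries at 6 hr were each below every 0 hr library, and from 24 to 168 hr the times overlapped with 0 hr. At 6 hr Cd36 was 2.83-fold lower than at 0 hr (log2 difference −1.50, SE 0.44, edgeR adjusted p = 0.00932), and 5.56-fold lower without the libraries lacking an LPS response (−2.47, SE 0.29, adjusted p = 1.72e-07). At 24 hr the difference was −0.35 (SE 0.48, adjusted p = 0.62). Slc27a1, at 22.1, 8.35, 10.2, 7.19 and 18.9 CPM at 6 hr, overlapped with 0 hr (log2 difference −0.12, interval −0.82 to 0.58, adjusted p = 0.802). At 24 hr each of its libraries (10.8, 6.94, 4.82 and 7.25 CPM) was below every 0 hr library, but the test was not passed (−0.88, SE 0.40, adjusted p = 0.122).

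**Figure D2:**
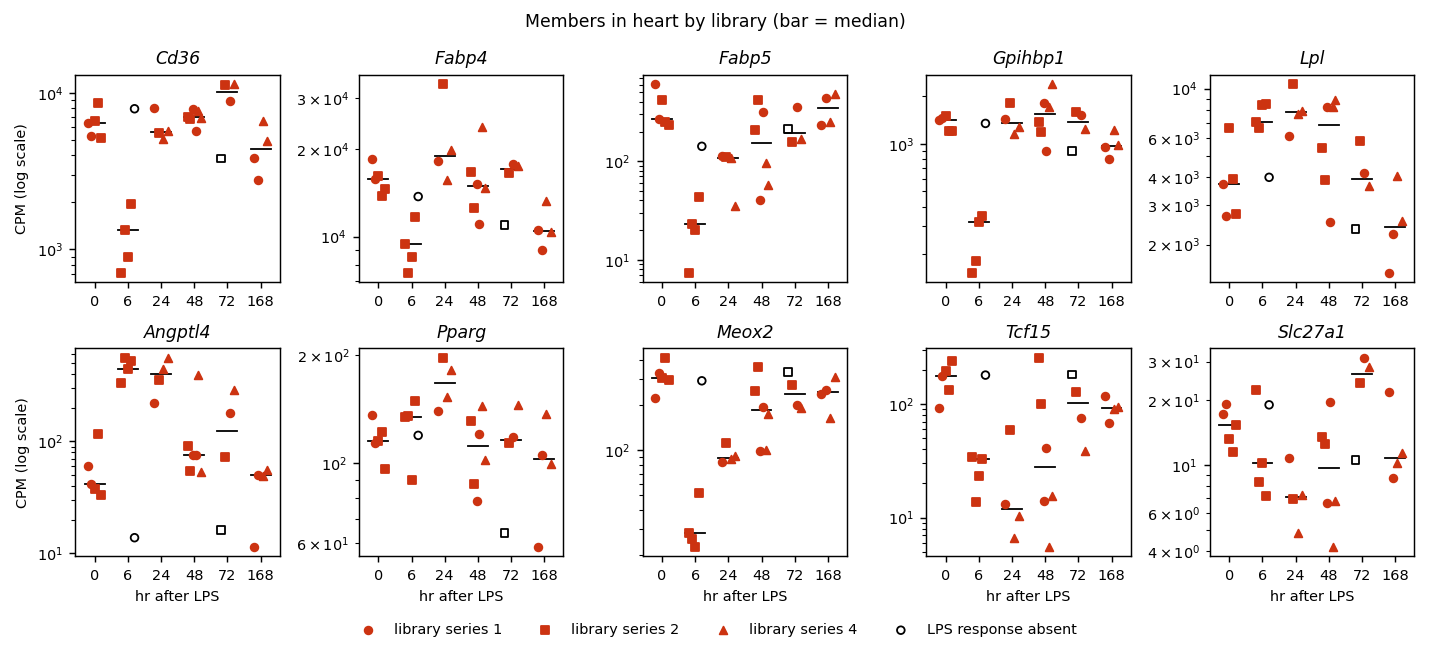
Each of the 10 genes in every heart library by time after LPS, in CPM on a log axis, with a bar at the median. Circles, squares and triangles are library series 1, 2 and 4, and open symbols are the 2 heart libraries without an LPS response. The 6 hr points of Cd36, Gpihbp1, Fabp5, Meox2 and Tcf15 lie below those at 0 hr apart from the open ones, except that Fabp5 is below in all 5, and those of Angptl4 lie above.

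Gpihbp1 fell with Cd36. Its 6 hr heart values were 153, 181, 319 and 349 CPM, with 1348 CPM in replicate 5, and at 24 hr it was back at 1447, 1817, 1160 and 1276 CPM. It stayed at 902 to 2397 CPM at 48 hr, 897 to 1582 CPM at 72 hr and 801 to 1231 CPM at 168 hr, all overlapping with 0 hr. The 6 hr fall was 3.13-fold (log2 difference −1.65, SE 0.38, edgeR adjusted p = 0.00186) and 5.6-fold without the libraries lacking an LPS response (−2.48, SE 0.28, adjusted p = 1.05e-07), and at 24 hr the difference was −0.09 (adjusted p = 0.895). Lpl moved the opposite way to its anchor. It had 7088, 6628, 8454 and 8570 CPM at 6 hr (4004 CPM in replicate 5) and 6141, 10493, 7726 and 7964 CPM at 24 hr, where 1 of the 5 libraries at 0 hr, at 6663 CPM, reached into this range. With all libraries the differences were 0.70 (SE 0.33, adjusted p = 0.0879) at 6 hr and 0.87 (SE 0.36, adjusted p = 0.0893) at 24 hr, short of the threshold. Without the libraries lacking an LPS response Lpl was 1.74-fold higher at 6 hr (0.80, SE 0.33, adjusted p = 0.041) and higher by 0.89 at 24 hr (adjusted p = 0.0498). At 48 hr it spread from 2522 to 8898 CPM (median 6842), and at 168 hr it was at 1496, 2231, 4063 and 2542 CPM.

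Angptl4, the inhibitor, rose most. It had 331, 558, 447 and 520 CPM in heart at 6 hr and 13.8 CPM in replicate 5, and 219, 352, 444 and 554 CPM at 24 hr. At 48 hr it ran from 53.2 to 389 CPM (median 75.9), at 72 hr it had 16.1 (replicate 1), 72.2, 178 and 288 CPM and at 168 hr 11.5, 50.3, 49.3 and 55.1 CPM. The 24 hr libraries were all above the 0 hr range of 33.0 to 117 CPM, and the later times overlapped with it. The rise was 6.16-fold at 6 hr (log2 difference 2.62, SE 0.71, edgeR adjusted p = 0.00557) and 4.31-fold at 24 hr (2.11, SE 0.71, adjusted p = 0.0453). The 24 hr call of Angptl4 was lost with limma-voom (adjusted p = 0.0695), with the replicate block (0.108) and in library series 1 alone (0.397). Without the libraries lacking an LPS response the rises were 7.94-fold at 6 hr (2.99, SE 0.48, adjusted p = 1.43e-05) and 4.36-fold at 24 hr (adjusted p = 0.00234).

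**Figure D3:**
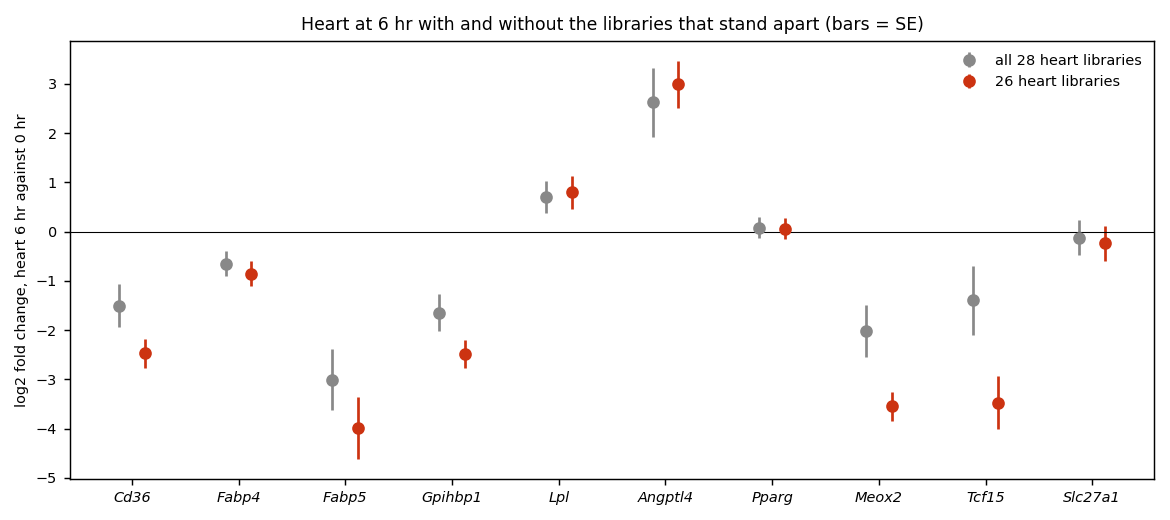
Log2 difference of each gene in heart at 6 hr against 0 hr, with bars of 1 SE, from the fit of all 28 heart libraries and from the fit of the 26 left without those lacking an LPS response. Meox2 moves from −2.03 to −3.55 and Tcf15 from −1.39 to −3.47 between the fits, while Pparg stays at 0.08 and 0.06.

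The binding proteins fell by unequal amounts. Fabp5 had 7.40, 23.0, 20.1 and 42.9 CPM in heart at 6 hr and 142 CPM in replicate 5, all 5 below the lowest 0 hr library at 235 CPM. It was still at 113, 110, 107 and 34.9 CPM at 24 hr, all below 0 hr, and at 40.6 to 418 CPM at 48 hr (median 152), 156 to 352 CPM at 72 hr and 235 to 478 CPM at 168 hr. Its 6 hr fall was 8.04-fold (log2 difference −3.01, SE 0.62, edgeR adjusted p = 0.000792), and 15.8-fold without the libraries lacking an LPS response (−3.99, SE 0.63, adjusted p = 1.06e-05). At 24 hr it was −1.68 (SE 0.68, adjusted p = 0.084) with all libraries and −1.63 (adjusted p = 0.0436) without those. Fabp4 fell less. It had 9394, 7502, 8498, 11650 and 13739 CPM at 6 hr, all below the 0 hr libraries, which started at 13807 CPM, and 18186, 33629, 15672 and 19853 CPM at 24 hr. The 6 hr fall of Fabp4 was 1.57-fold (−0.65, SE 0.26, adjusted p = 0.0458), a call lost in 16 of 28 fits that each left out 1 library, with RLE factors (0.0558), with no low-count filter (0.064) and with the replicate block (0.0605), and 1.81-fold (−0.86, SE 0.25, adjusted p = 0.00582) without the libraries lacking an LPS response. At 168 hr Fabp4 was at 10515, 8955, 13218 and 10358 CPM, again below every 0 hr library, but the test was not passed (−0.63, SE 0.30, adjusted p = 0.985).

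Among the regulators, Meox2 fell at 6 hr and Tcf15 at 24 hr with all libraries, and no change of Pparg passed the test. Meox2 had 28.1, 25.8, 22.8 and 51.8 CPM in heart at 6 hr and 291 CPM in replicate 5, then 83.3, 111, 86.9 and 92.0 CPM at 24 hr, all below the 0 hr range of 222 to 414 CPM. At 48 hr it ran from 99.5 to 359 CPM (median 185), and at 72 hr (192 to 332 CPM) and 168 hr (165 to 310 CPM) it overlapped with 0 hr. The 6 hr fall was 4.07-fold (log2 difference −2.03, SE 0.53, edgeR adjusted p = 0.00473) and 11.7-fold without the libraries lacking an LPS response (−3.55, SE 0.30, adjusted p = 1.46e-09). At 24 hr Meox2 was at −1.62 (SE 0.59, adjusted p = 0.0598) with all libraries and at −1.53 (adjusted p = 0.000548) without them. Tcf15 had 33.9, 13.8, 23.5 and 32.6 CPM at 6 hr and 180 CPM in replicate 5, and 13.2, 58.7, 6.62 and 10.4 CPM at 24 hr against 93.3 to 237 CPM at 0 hr. With all libraries the 6 hr difference of Tcf15 was −1.39 (SE 0.70, adjusted p = 0.106), and without those lacking an LPS response it fell 11.1-fold (−3.47, SE 0.55, adjusted p = 1.03e-05). At 24 hr Tcf15 was 5.24-fold lower (−2.39, SE 0.82, adjusted p = 0.0464) with all libraries, a call lost in 18 of 28 fits that each left out 1 library, and 5.63-fold lower (adjusted p = 0.00167) without those. Pparg had 135, 136, 89.8, 149 and 119 CPM at 6 hr, within or near its 0 hr range of 96.2 to 136 CPM (log2 difference 0.08, interval −0.34 to 0.50, adjusted p = 0.778). At 24 hr all of its libraries (139, 196, 153 and 182 CPM) were above 0 hr, but the test was not passed (0.35, SE 0.23, adjusted p = 0.268).

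At 48 hr library series 2 stood apart in heart. In the 2 libraries of series 2 the LPS response genes summed to 1933 and 1398 CPM, and Meox2 had 249 and 359 CPM and Tcf15 255 and 100 CPM, whereas in the other 4 the response sum was 5502 to 22056 CPM. Over the group Meox2 started at 99.5 CPM and Tcf15 at 5.56 CPM. At 24 hr, 1 gene was higher and 1 was lower beside 9.07% and 7.11% of all genes, and without the libraries lacking an LPS response 2 were higher and 3 lower beside 13.0% and 12.6%. At 48 hr none of the 10 was called by edgeR (3.08% of all genes higher, 1.11% lower, 3264 at an unadjusted p under 0.05), and without those libraries Tcf15 was lower (−1.37, adjusted p = 0.0456, beside 5.75% and 3.28%). At 72 hr (0.275% higher, 0% lower, 943 genes at an unadjusted p under 0.05) and at 168 hr (0% and 0%, 680 genes) none was called.

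**Figure D4:**
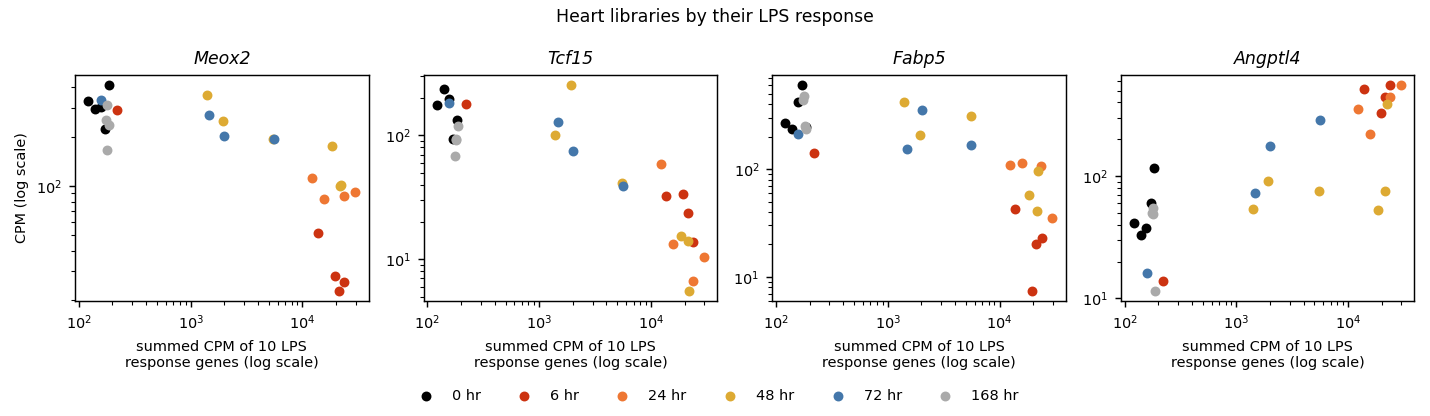
Meox2, Tcf15, Fabp5 and Angptl4 in CPM against the summed CPM of 10 LPS response genes, both on log axes, with 1 point for each heart library coloured by time. Replicate 5 at 6 hr and replicate 1 at 72 hr lie within the 0 hr range of Meox2 and Tcf15, and the other 4 libraries at 6 hr lie below it, and above the 0 hr range for Angptl4.

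Because 4 of the 5 heart libraries at 6 hr were of library series 2 and the fifth was the one without an LPS response, the change was also taken within series 2 alone, 4 libraries against 3 at 0 hr. The difference in mean log2 CPM was −2.55 for Cd36, −2.47 for Gpihbp1, −3.88 for Fabp5, −0.70 for Fabp4, −3.45 for Meox2, −2.90 for Tcf15, 3.11 for Angptl4, 0.88 for Lpl and 0.18 for Pparg. Cell markers moved in the same libraries. The 10 endothelial markers summed to 4920, 6370, 5078 and 6704 CPM in the responding heart libraries at 6 hr and to 13044 CPM in replicate 5, and 8 of 10 were lower at 6 hr (median −1.06), or 9 of 10 (median −1.51) without the libraries lacking an LPS response. Without those libraries the falls of Cd36, Gpihbp1, Fabp5, Meox2 and Tcf15 were larger than that median and the fall of Fabp4 (−0.86) was smaller. These differences from the marker median were not tested. At 24 hr the endothelial sum was 9520 to 11730 CPM, with 1 of 10 lower (3 without those libraries). The cardiomyocyte sum ran from 4937 to 9235 CPM at 6 hr and from 2869 to 4486 CPM at 24 hr, and 1 of 10 of these markers was higher at 6 hr (2 without those libraries). Neutrophil markers went from 0.566 to 0.954 CPM at 0 hr to 38.6 to 60.3 CPM in the responding libraries, with 6 of 6 higher, and were at 0.460 CPM in replicate 5. The part of these markers in the changes was not tested.

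In the brain libraries, where Cd36 and Gpihbp1 were low from the start but Slc27a1 was not, Angptl4 rose and Tcf15 fell. At 6 hr 1 gene was higher and 1 lower (4.21% and 2.23% of 19234 genes), at 24 hr 2 and 1 (6.52% and 4.66%), and at 48 hr 1 and 1 (8.11% and 6.12%). Without the libraries lacking an LPS response, of which brain held 1, the same numbers were called beside 7.63% and 6.71% at 6 hr, 7.46% and 5.91% at 24 hr and 8.72% and 7.15% at 48 hr. At 72 hr (2.98% and 0.546%, 3050 genes at an unadjusted p under 0.05) and 168 hr (0% and 0%, 828 genes) edgeR called none of the 10. The medians of the 10 genes ran from −0.22 to 0.18 over the 5 times, and those of all genes from −0.04 to 0.09.

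Angptl4 had 304, 393, 380 and 386 CPM in brain at 6 hr and 42.5 CPM in replicate 6, then 317, 315, 544 and 640 CPM at 24 hr, 18.9 to 576 CPM at 48 hr (median 196), 36.4 to 218 CPM at 72 hr and 14.6 to 83.1 CPM at 168 hr. The 24 hr libraries were all above the 0 hr range of 11.1 to 67.5 CPM. It was 11.1-fold higher at 6 hr (log2 difference 3.48, SE 0.67, edgeR adjusted p = 0.0017), 8.13-fold at 24 hr (3.02, SE 0.67, adjusted p = 0.00525) and 3.81-fold at 48 hr (1.93, SE 0.64, adjusted p = 0.0447, a call lost in 17 of 28 fits that each left out 1 library). Without the library lacking an LPS response these were 3.91 (adjusted p = 1.67e-05), 2.97 (0.000646) and 1.78 (0.0236). Tcf15 had 1.55, 3.66, 1.15, 1.03 and 1.61 CPM at 6 hr, 0.258, 1.29, 0.417 and 1.03 CPM at 24 hr and 0.0795 to 1.74 CPM at 48 hr, against 2.99 to 5.07 CPM at 0 hr. All libraries at 24 and 48 hr were below 0 hr. At 168 hr its 1.54 to 2.86 CPM were below 0 hr too, but the test was not passed. Without the library lacking an LPS response, the 168 hr log2 difference of Tcf15 was −0.41 (SE 0.48, edgeR adjusted p = 0.823). The share of all genes that separate in this way was not counted. The falls were 2.83-fold at 6 hr (−1.50, SE 0.44, adjusted p = 0.0365), 5.12-fold at 24 hr (−2.36, SE 0.52, adjusted p = 0.00563) and 4.81-fold at 48 hr (−2.27, SE 0.44, adjusted p = 0.00204), and −1.80, −2.38 and −2.30 without that library. The 6 hr call of Tcf15 was lost without the library series covariate (−1.27, adjusted p = 0.271) and in series 2 alone (0.0654), and its 24 and 48 hr calls in each series alone. The 24 hr call of Angptl4 was lost with the replicate block (0.0604), and its 48 hr call with limma-voom (0.0856) and with that block (0.143). The 48 hr call of Angptl4 was also lost in each series alone. Its 48 hr difference in mean log2 CPM was 2.78 within series 1 and 0.25 within series 2.

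Fabp4, at 2.38 to 10.9 CPM in brain at 0 hr, had 25.8, 23.7, 36.3 and 29.3 CPM at 24 hr with no overlap. The rise was 4.03-fold (log2 difference 2.01, SE 0.62, edgeR adjusted p = 0.0385), and 1.92 (adjusted p = 0.0306) without the library lacking an LPS response. The Fabp4 call was lost with limma-voom (adjusted p = 0.0558), with the replicate block (0.0985) and in library series 1 (0.425) and 2 (0.164) alone. Slc27a1, the uptake gene with the highest brain level, had 30.8, 29.6, 25.4 and 18.8 CPM at 24 hr, all below 0 hr, without passing the test (−0.43, SE 0.33, adjusted p = 0.434). Lpl went from 10.5 to 26.8 CPM at 0 hr to 32.9, 37.9, 36.4 and 44.8 CPM in the 4 responding libraries at 6 hr (13.9 CPM in replicate 6), a difference of 0.52 (SE 0.30, adjusted p = 0.397). Cd36, Gpihbp1, Meox2 and Pparg stayed near or under 4 CPM at all times in brain, and Fabp5 was at 1.62 to 33.3 CPM. Endothelial markers in brain summed to 1578 to 2892 CPM at 6 hr, with 3 of 10 lower and 1 higher. At 24 hr the fibroblast markers in brain had a median sum of 3924 CPM against 1086 CPM at 0 hr, with 1 of 5 higher. At 48 hr 9 of 10 macrophage markers (median 2.16) and 4 of 6 neutrophil markers (median 2.31) were higher. The part of these markers in the brain values was not tested.

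**Figure D5:**
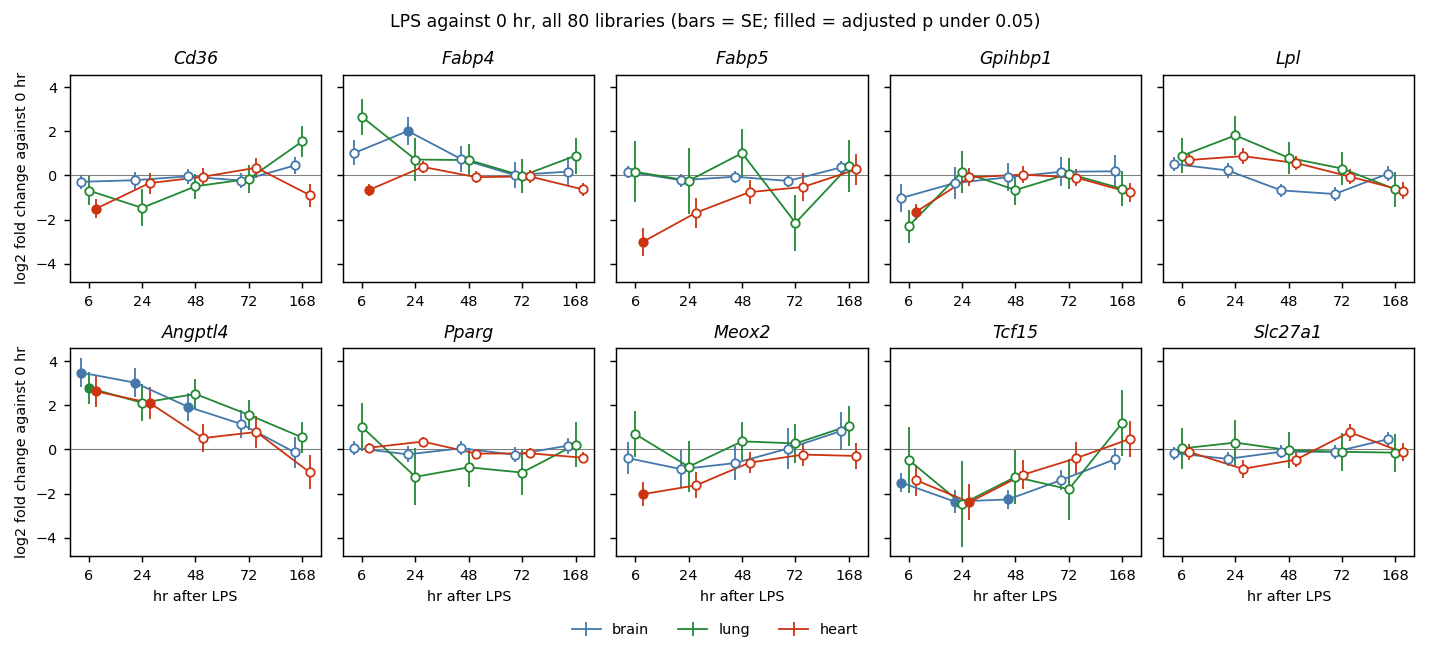
Log2 difference from 0 hr of each gene at 6, 24, 48, 72 and 168 hr in brain, lung and heart, all libraries, with bars of 1 SE and filled points where the adjusted p is under 0.05. Angptl4 is the gene filled at 6 hr in all 3 tissues, and the filled points below 0 in heart at 6 hr are Cd36, Gpihbp1, Fabp4, Fabp5 and Meox2.

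In lung the spread between libraries was wide and 1 gene was called. Angptl4 had 99.3, 54.4 and 43.5 CPM at 6 hr and 0 CPM in replicate 4, which has 284457 counts in all, so that 3 counts there stand for a floor of 10.5 CPM before scaling. At 24 hr it had 23.1 and 39.5 CPM and at 48 hr 17.4 to 102 CPM (median 33.4), all above the 0 hr range of 1.77 to 12.3 CPM. The 6 hr rise was 6.89-fold (log2 difference 2.79, SE 0.71, edgeR adjusted p = 0.0219), and 3.10 (adjusted p = 0.0124) without the library lacking an LPS response, while at 48 hr it was 2.51 (SE 0.67, adjusted p = 0.0756). Beside this 1 gene of 10 higher and 0 lower, 2.56% and 2.27% of 17058 genes were called at 6 hr, where the median of all genes was −0.42 and that of the 10 genes 0.43.

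Fabp4 had 581, 2952, 193 and 646 CPM in lung at 6 hr against 154 to 248 CPM at 0 hr. Its difference of 2.65 (SE 0.81, edgeR adjusted p = 0.0505) was 3.10 (adjusted p = 0.0286) without the library lacking an LPS response, where 2 genes were higher beside 2.38% and 1.57% of genes called. Gpihbp1 had 11.0, 304, 203 and 197 CPM at 6 hr, each below the 570 CPM of the lowest 0 hr library, yet the difference of −2.29 (SE 0.75, adjusted p = 0.0672) missed the threshold, and was −2.20 (adjusted p = 0.122) without that library. Lpl at 666, 1688, 3649 and 365 CPM and Cd36 at 243, 987, 136 and 393 CPM overlapped with 0 hr. The regulators were sparse: Meox2 had 7.72, 41.7, 3.07 and 0 CPM and Tcf15 0.552, 0, 3.76 and 28.1 CPM. Cardiomyocyte markers summed to 137 to 2376 CPM in lung at 6 hr, against 73.3 to 152 CPM at 0 hr, and neutrophil markers to 3502, 1629 and 3471 CPM in the responding libraries and 28.1 CPM in replicate 4. Endothelial markers in lung summed to 1858 to 6249 CPM at 6 hr against 4834 to 11570 CPM at 0 hr, with 2 of 10 lower (median −1.21). Neural markers summed to 45.5 to 1658 CPM against 18.9 to 54.5 CPM, with 3 of 9 tested higher (median 3.77). The part of these in the lung values was not tested.

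At the later lung times edgeR called none of the 10, beside 0.363% of genes higher and 0.0117% lower at 24 hr, 0.428% and 0.170% at 48 hr, 0.170% and 0.0234% at 72 hr and 0% and 0.0117% at 168 hr. The genes at an unadjusted p under 0.05 numbered 1022, 1674, 1225 and 605 at these times. Lung at 24 hr held 2 libraries. Lpl, at 3013 and 2502 CPM there, lay above its 0 hr range of 251 to 1404 CPM (log2 difference 1.82, SE 0.90, adjusted p = 0.848).

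Whether the course over the 5 times differed between tissues was tested directly, as the tissue by time terms of 1 fit. Heart against lung differed in Cd36 (edgeR adjusted p = 0.00321), Fabp4 (0.00613), Fabp5 (0.00273), Pparg (0.0317) and Meox2 (0.0217), 5 of 10 beside 30.9% of 22007 genes. Lung against brain differed in Lpl (adjusted p = 0.0304), 1 of 10 beside 29.9%. The Pparg call was lost with limma-voom (0.13) and when libraries of low depth were left out (0.0512), and the Lpl call with limma-voom (0.14). For heart against brain none passed (Fabp5 adjusted p = 0.0765, Cd36 0.475), beside 2.87% of genes called and 2851 at an unadjusted p under 0.05. By the file names most mice gave a library of each tissue, which this fit treats as independent. With the mouse as a block, an alternative added after seeing the data, Fabp5 (edgeR adjusted p = 0.0125) and Lpl (0.0382) differed between heart and brain beside 4.10% of genes. In that fit Cd36 (0.00287), Fabp4 (0.0409), Fabp5 (0.00372) and Meox2 (0.00307) differed between heart and lung beside 30.8%, while Pparg did not pass (0.156), and Lpl (0.000499) differed between lung and brain beside 26.9%. Without the 4 libraries lacking an LPS response, Cd36 (adjusted p = 0.000736) and Fabp5 (0.000272) differed between heart and brain beside 8.20% of 22019 genes. The same 5 genes differed between heart and lung beside 32.1%, with Cd36 at 9.57e-06 and Meox2 at 8.41e-05, and Lpl (0.0422) and Meox2 (0.0166) between lung and brain beside 30.2%. The shares of 5 in 10 between heart and lung and 1 in 10 between lung and brain rest on 10 genes. Whether they differ from the shares of all genes was not tested.

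In the wider list of 74 genes, heart at 6 hr had 13 higher and 13 lower of 63 tested, beside 22.4% and 20.3% of 16024 genes. Without the libraries lacking an LPS response it had 13 and 19, beside 27.8% and 30.2% of 16242. At 24 hr it had 5 and 6, beside 9.07% and 7.11%, and 8 and 14 without those libraries, beside 13.0% and 12.6%. With all libraries these counts were near the shares of all genes. The counts by role are with all libraries and stand beside the same 6 hr shares. Of 14 regulators tested at 6 hr 2 were higher and 4 lower, of 13 mitochondrial oxidation genes 3 and 3, of 12 droplet and lipolysis genes 3 and 2, and of 11 lipoprotein and lipase genes 3 and 2. Pdk4, a kinase that slows glucose oxidation when fatty acids are used, was higher in heart at 6 hr (log2 difference 3.65, SE 0.78, edgeR adjusted p = 0.00118), and so was Hilpda at 24 hr (2.31, adjusted p = 0.00706). Mgll (−2.37, adjusted p = 0.000732), Nrp1 (−2.01, adjusted p = 0.00186) and the lipoprotein receptor Scarb1 (−1.91, adjusted p = 0.00115) were lower at 6 hr, and Aplnr, the apelin receptor, at 24 hr (−3.52, adjusted p = 0.0108).

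Brain had 2 higher and 5 lower of 67 at 6 hr, beside 4.21% and 2.23% of 19234 genes. Without its library lacking an LPS response it had 7 and 10, beside 7.63% and 6.71%. With all libraries it had 5 and 9 at 24 hr (6.52% and 4.66%) and 4 and 8 at 48 hr (8.11% and 6.12%). Lung had 2 and 5 of 63 at 6 hr, beside 2.56% and 2.27% of 17058 genes. At 24 hr brain Pdk4 was higher (2.45, edgeR adjusted p = 0.0125), as were the droplet genes Hilpda (2.18, adjusted p = 0.00965) and Plin2 (1.78, adjusted p = 0.00406), and the lysolipid carrier Mfsd2a was lower (−1.79, adjusted p = 0.00217), as was Nrp1 (−1.67, adjusted p = 0.0125). Plin4 was higher in brain at 6 hr (1.65, adjusted p = 0.0126). In lung at 6 hr Pdk4 was higher (3.31, adjusted p = 0.0253), and Hilpda (−2.92, adjusted p = 0.0152), Nrp1 (−2.65, adjusted p = 0.013), Hadh (−2.39, adjusted p = 0.008) and Apln (−2.79, adjusted p = 0.0437) were lower, the last not without the library lacking an LPS response (adjusted p = 0.106). The course of Hilpda differed between heart and lung (adjusted p = 3.8e-07) and between lung and brain (5.35e-06), and for heart against brain the adjusted p was 0.785.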

How the data were processed

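RNA on HA-tagged ribosomes was sequenced from 3 tissues at 6 times. The authors deposited raw counts per gene and run, per the labels made with STAR 2.4.2 and HTSeq 0.6.1 on mm10. Here the runs of a library were summed, and 18 libraries with under 3% of reads on genes, all of library series 3 with 155176 to 1330479 counts, were left out. Library series 1 to 4 was read from the deposited file names, since batches are not labelled, and entered as covariate (series 4 has no 0 hr library). Of 52550 gene rows 52403 had a symbol.

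Counts were tested in R 4.3.3 with edgeR 4.0.16: filterByExpr, TMM, the two-sided quasi-likelihood test, Benjamini-Hochberg over all genes, threshold 0.05. SE is the log2 difference divided by the root of F, and intervals are 2 SE. CPM used TMM over all 80 libraries, and log2 CPM a prior count of 2. DESeq2 1.42.0 and limma 3.58.1 gave alternatives, and Python 3.11.15 the rest. The fits were tested on simulated data. The genes, gene lists and marker lists were chosen with earlier results of these data known. Named were the 10 genes and, from the wider list, up to 6 per tissue (at 6 or 24 hr) and per baseline pair with the largest called difference and a mean log2 CPM of at least 3. Whether the labels' replicates are separate animals is not stated, so p-values measure the spread between libraries. By the file names, the same replicate number at 0 hr meant the same mouse between heart and brain, but not for lung throughout. Same-numbered libraries varied little together. Their median correlation was 0.001, 0.036 and −0.156 between heart and brain, heart and lung, and lung and brain at 0 hr. For libraries of 1 mouse by the file names it was 0.001, 0.159 and 0.149. For Pparg, 1 of the genes most like it is not reported here. Floors and intervals on counts cover counting error only.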

Additional observations from a re-analysis of the deposited data

Results flagged for a closer look

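Of 170 groups of a gene in a tissue and time with 4 to 10 libraries, 15 held 1 library far from the others, where chance gives about 1 in 20. Values are log2 CPM. Of these, 6 came from libraries without an LPS response: Angptl4 in heart 6 hr replicate 5 at 3.80 (others 8.37 to 9.12), in brain 6 hr replicate 6 at 5.41 (8.25 to 8.62) and in lung 6 hr replicate 4 at −3.35 (5.45 to 6.63, no count), and Lpl in brain 6 hr replicate 6 at 3.81 (5.04 to 5.49). Meox2 in that brain library was at −0.492 (others −2.88 to −2.56) on 8 counts, and Fabp4 in heart 72 hr replicate 1, also without an LPS response, was at 13.4 (14.0 to 14.1).

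Replicate 1 at 168 hr was low for Angptl4 in brain at 3.87 (6.02 to 6.38) and in heart at 3.54 (5.63 to 5.79), and high for Pparg in brain at 0.977 (0.229 to 0.346) and for Tcf15 in lung at 3.91 (0.946 to 1.2). Angptl4 in heart 48 hr replicate 6 was high at 8.61 (5.74 to 6.52), and Fabp5 in heart 24 hr replicate 5 was low at 5.13 (6.75 to 6.83). Cd36 in lung 72 hr replicate 5 was low at 8.27 (8.95 to 9.06). Gpihbp1 was low in brain 24 hr replicate 1 at −1.89 (−0.03 to 0.29), on 2 counts, and in lung 6 hr replicate 1 at 3.48 (7.62 to 8.25), on 20 counts. No cause was tested for these.

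The response over the 5 times differed between heart and lung for Cd36 (edgeR adjusted p = 0.00321), Fabp4 (0.00613), Fabp5 (0.00273), Pparg (0.0317) and Meox2 (0.0217), and between lung and brain for Lpl (0.0304).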

How the results depend on the processing

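The number of the 10 genes called, over the 5 times in a tissue, moved in heart from 8 to 14 when the libraries without an LPS response were left out, a choice made after seeing the data. Calls over all genes in heart rose too, at 6 hr from 22.4% higher and 20.3% lower to 27.8% and 30.2%. At 24 hr they rose from 9.07% and 7.11% to 13.0% and 12.6%. The counts that follow stand without shares of all genes and describe the settings only. In library series 1 alone, with 1 library at 6 hr in each tissue, 0 genes were called after LPS in any tissue (edgeR), and in series 2 alone 9 were called in heart, 4 in brain and 0 in lung over the times it holds. In lung the 1 call became 4 with DESeq2 or without the low-count filter, and 2 with limma-voom, RLE factors, no library series covariate, a minimum depth per library, the replicate block or without those libraries. For the course between heart and brain the 0 calls became 1 with limma-voom, with all libraries kept or with the replicate block, 2 without those libraries or with the mouse block and 3 without the low-count filter. Between lung and brain the 1 call became 3 with DESeq2, 4 without the low-count filter, 2 without those libraries and 0 with limma-voom or without the series covariate. Leaving out 1 library at a time gave 4 to 7 calls in brain (main 7), 0 to 3 in lung, 5 to 13 in heart, 9 to 10, 9 to 10 and 8 to 9 at baseline (heart-brain, heart-lung, lung-brain) and 0 to 2, 2 to 5 and 0 to 3 for the courses. For the courses these fits kept the low-count filter, TMM factors and negative binomial dispersions (spread of counts) of the full fit. Those by tissue and at baseline were redone in full. Heart gave 13 without heart 6 hr replicate 5, lung gave 0 without 0 hr replicate 2 or 3 and 3 without 6 hr replicate 3, and brain gave 4 without 0 hr replicate 2 or 5. Single values turned in library series 1 alone: Angptl4 in lung (−8.25) and heart (−1.89), Cd36 (0.421) and Meox2 (0.0598) in heart, all at 6 hr, where its only heart and lung libraries are those without an LPS response, and Fabp5 for lung against brain (0.0206). DESeq2 left 200 of 210 values on their side of the threshold, limma-voom 201 and RLE 207.

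With the replicate block, 5 calls of single genes were lost and 5 gained, among the latter Tcf15 in heart at 6 hr (−2.09, edgeR adjusted p = 0.0189). By the file names, the same replicate number stands for different mice at different times. A block for the mouse at baseline, read from file names, changed 1 call of a single gene, Angptl4 for heart against brain (1.00, edgeR adjusted p = 0.00776). In the course fit the mouse block, added after seeing the data, gave 2 calls for heart against brain, 4 for heart against lung and 1 for lung against brain. The cause of these moves was not tested. Depth limits lung most, where 1 library had 284457 counts.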

Other observations

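For each gene, the 3 genes with the most similar group means over the 18 groups of tissue and time were found among 8973 to 8974 genes, by Pearson's r of mean log2 CPM. This is a description with no test, and the points share libraries and tissues. For Cd36 these were Myh6 (0.982), Cyp4b1 (0.980) and F2r (0.975), for Fabp4 Ttn (0.988), Mb (0.987) and Myh6 (0.985), and for Lpl Trim25 (0.977), Tnni3 (0.966) and Myh6 (0.964), so that cardiomyocyte genes stood beside these 3. Meox2 was nearest to Rbp7 (0.976), Ttn (0.972), again a cardiomyocyte gene, and Cd300lg (0.971). Gpihbp1 was nearest to Tns1 (0.973), Aqp1 (0.973) and Pald1 (0.967), and Tcf15 to Ggta1 (0.960), Myo10 (0.957) and C1qtnf9 (0.951). Fabp5 was nearest to Eepd1 (0.979), Ablim3 (0.955) and Dennd5a (0.953), and Pparg to Ccdc80 (0.973) and Plod3 (0.968), among others. Angptl4 was nearest to Apold1 (0.925), Rgs16 (0.912) and Tnfrsf11a (0.909), and Slc27a1 to Shf (0.971), Ppm1l (0.967) and Miga2 (0.966).

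Among genes of the wider list under the level needed to be named, and chosen after their values were seen, Lipg, the endothelial lipase, rose in heart at 6 hr by a log2 difference of 7.71 (SE 1.11, edgeR adjusted p = 2.85e-05), or 8.22 (adjusted p = 6.72e-09) without the libraries lacking an LPS response. Mfsd2a, lower in brain at 24 hr, was higher in heart at 6 hr by 4.88 (adjusted p = 0.000178), or by 5.54. The course of Mfsd2a differed between heart and brain (adjusted p = 0.000323).

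Of the libraries left out for few reads on genes, 1 heart library at 0 hr and 1 at 6 hr are described with no test. Both are replicate 6, with 630497 and 659033 counts. Cd36 and Fabp4 were far below their levels in the kept heart libraries at 0 hr, 5156 to 8558 and 13807 to 18558 CPM. With 1 library a time, a change with LPS and a difference in library quality cannot be told apart. In CPM of the library total, with 95% Poisson intervals that cover counting error only, Cd36 had 85.6 (64.3 to 112) at 0 hr and 16.7 (8.34 to 29.9) at 6 hr, Gpihbp1 42.8 (28.2 to 62.3) and 7.59 (2.46 to 17.7), and Fabp4 793 (725 to 866) and 121 (95.9 to 151). Angptl4 had 1 and 8 counts and Lpl 46 (30.8 to 66.1) and 78.9 (58.9 to 103). Fabp5, Tcf15 and Meox2 had 18, 11 and 6 counts at 0 hr and 0 at 6 hr, where 3 counts would be 4.55 CPM.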
